A study of Homo sapiens with 18 samples.

Results

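The 10 genes described here encode AP-1 and EGR immediate-early factors and their companions. They are FOS, FOSB, FOSL1 and FOSL2, which make the Fos proteins, JUN, JUNB and JUND, which make the Jun proteins, the zinc-finger factor EGR1, and IER2 and IER3. They were chosen by gene symbol from knowledge of these families, with earlier results of these data known, and were 10 of the 57736 rows of the count table. Each symbol matched a single row, and all 10 were among the 15318 genes that passed the filter on low counts.

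RNA was measured in PEO1, a human ovarian cancer cell line in which, going by the title of the series, p53 is mutant, after transfection with an siRNA against p53 (sip53) or a control siRNA (siControl). Transfected cells were given 10 nM estradiol (E2), and RNA was taken at 0, 2 and 8 h. The 6 groups are sip53 at 0 h without E2, sip53 at 2 h and 8 h of E2, siControl at 0 h without E2, and siControl at 2 h and 8 h of E2. No group was sampled at 2 h or 8 h without E2. Effects of E2 therefore cannot be told apart from those of elapsed time or handling. The E2 response named below is a change from 0 h. Each group had 3 libraries, 18 in all, and every group, the 0 h ones included, had been kept for 48 h in medium without phenol red and with charcoal-stripped serum, which is low in steroid hormones. The labels name a single reagent for each arm. The transcript targeted by the siRNA was not analysed here, so the knockdown was not checked, and sip53 names the library's label. They leave unsaid whether replicates were separate cultures, so a p-value here reflects the spread among these libraries, and that spread may be technical. The series title raises the question of how mutant p53 bears on the estrogen receptor, and the comparisons below set sip53 against siControl at each time, E2 against 0 h in each arm, and the E2 response of sip53 against that of siControl.

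Immediate-early genes are transcribed within minutes of a stimulus without new protein synthesis, and their mRNAs are usually short-lived. A Fos and a Jun protein pair through leucine zippers to form AP-1, which binds a short palindromic DNA element, while Jun proteins can also pair with each other. EGR1 binds GC-rich DNA, and both families stand downstream of the ERK kinase cascade, which acts on serum response factor and its partners at CArG boxes in the FOS and EGR1 promoters. The estrogen receptor can reach DNA through AP-1 as well as through its own response element, and AP-1 genes have long been studied in estrogen-responsive cells.

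Libraries were made with a kit that reads the 3′ ends of transcripts, and total counts ran from 7542457 to 11307199. Levels are TMM-normalised counts scaled to library size (CPM), given as mean ± SD with n = 3, and each log2 fold change carries its standard error. A gene is said to have changed, or to be called, when its Benjamini-Hochberg adjusted p from edgeR's quasi-likelihood test was under 0.05 over all 15318 genes. The 10 genes together held 1340 to 1580 CPM in every library. The library siControl 0 h replicate 2 stood apart, with the lowest total count, a score of 41.7 on the second principal component, where the others lay between -36.1 and 28.1, and the largest root mean square distance (0.604) from its fellow replicates. Every comparison against siControl 0 h uses it. Results of the 10 genes and of called list genes that rest on it are given with and without it, apart from those of FOSB, JUND and IER2. A library of the other arm, sip53 0 h replicate 1, scored 3.1 on the first principal component. There the other sip53 libraries lay between -44 and -18.8 and the siControl libraries between 10.6 and 49.9. Comparisons with sip53 0 h use that library. The line expressed epithelial and ovarian carcinoma markers, with 13 of 15 at a median above 1 CPM in every group. SOX17 was at 0 in all libraries and FOLR1 was at 0 in 17 of 18. The fibroblast genes COL1A2, COL3A1, DCN and LUM and the leukocyte genes PTPRC, CD3E and NKG7 were at 0 in every library. The globin gene HBB was at 0 too. Other genes of these lists were detected in every library. Among the fibroblast genes these were THY1, FAP and COL1A1 (medians 113, 10.7 and 7.95 CPM). Among the leukocyte genes they were CD68 and CD14 (medians 9.3 and 5.96 CPM). The 5 endothelial markers summed to at most 1.07 CPM.

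The 10 genes differed widely in level and in how much they moved. IER2 lay between 636 and 802 CPM in the 18 libraries, and JUNB between 283 and 386 CPM. JUN lay between 74.0 and 148 CPM, JUND between 75.4 and 117 CPM, and FOSL2 between 54.3 and 106 CPM. These are tags from transcript ends and are not divided by transcript length. EGR1 lay between 23.1 and 53.9 CPM, IER3 between 33.7 and 67.3 CPM, and FOSL1 between 20.4 and 43.4 CPM. FOS and FOSB, the founding members of the Fos family, were near the bottom of the measurable range, with 15 to 61 and 13 to 78 counts per library. The highest group mean was 1.14 times the lowest for IER2, 1.21 times for JUND and 1.26 times for JUNB, against 1.92 times for EGR1, 2.28 times for FOS and 2.62 times for FOSB. The last 2 of these ratios rest on small counts.

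**Figure D1:**
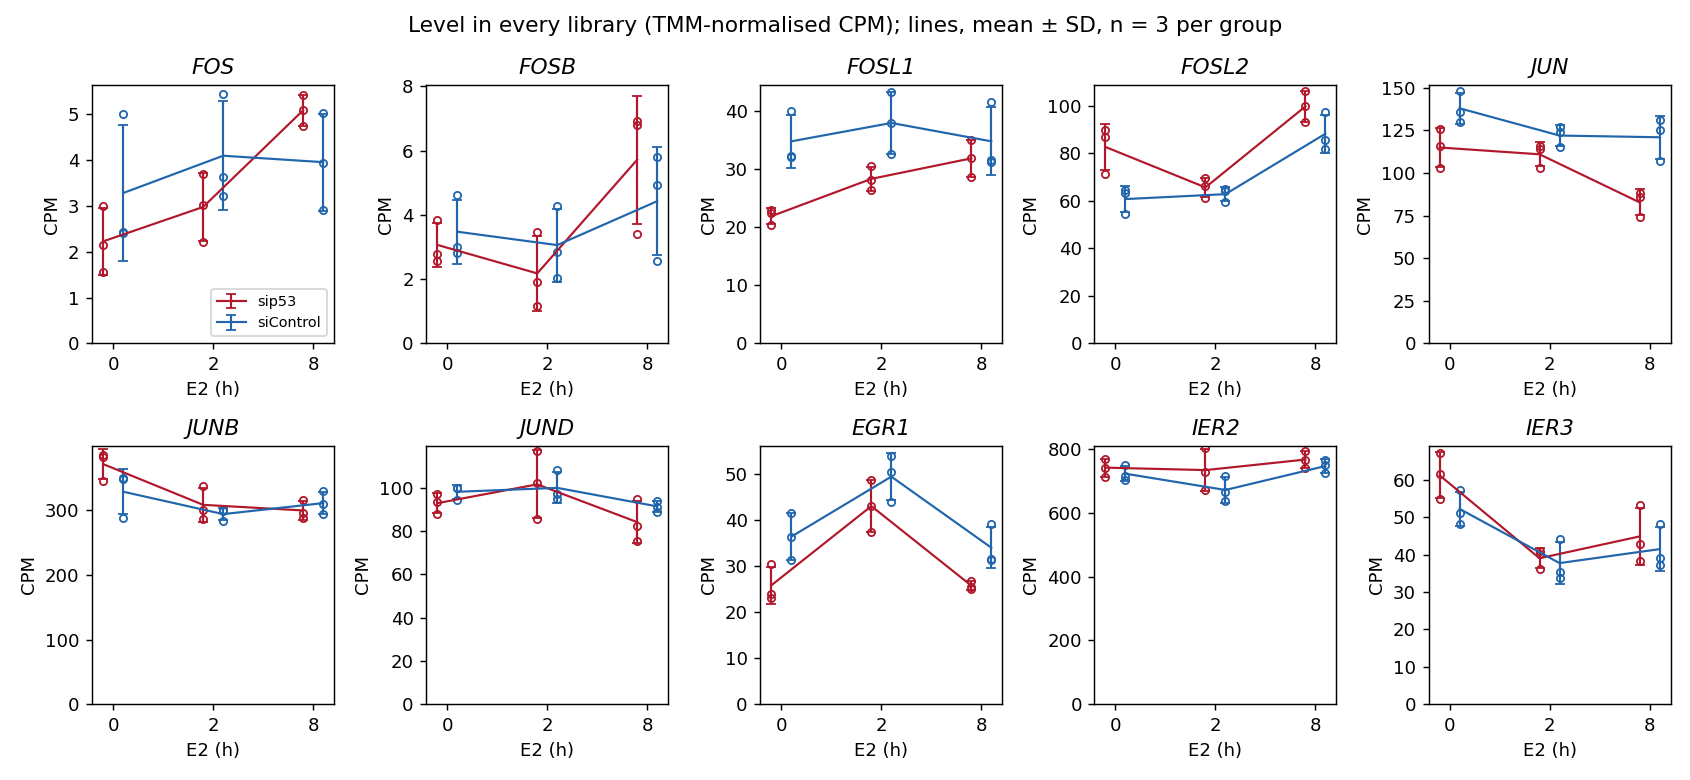
TMM-normalised CPM of the 10 genes (y axis) at 0, 2 and 8 h of E2 (x axis, times evenly spaced) in sip53 (red) and siControl (blue); circles are libraries, and lines join group means with bars of 1 SD (n = 3). EGR1 peaks at 2 h in both arms, FOSL2 is highest at 8 h in both, and JUN at 8 h lies between 74.0 and 88.3 CPM in sip53 and between 107 and 131 CPM in siControl.

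EGR1, which turns growth factor and stress signals into transcription (ENSG00000120738, chr5:138465490-138469315 on GRCh38, forward strand), was the gene of the set called higher at 2 h than at 0 h, in sip53 cells. In sip53 cells its level was 23.9, 30.5 and 23.1 CPM at 0 h, 37.4, 43.1 and 48.6 CPM at 2 h, and 25.1, 26.8 and 25.4 CPM at 8 h. In siControl cells it was 31.4, 36.3 and 41.5 CPM at 0 h, 43.9, 53.9 and 50.5 CPM at 2 h, and 31.4, 31.5 and 39.1 CPM at 8 h. In each arm all libraries at 2 h lay above all libraries at 0 h and at 8 h. In sip53 cells EGR1 rose 1.67-fold at 2 h (log2 0.74 ± 0.14, edgeR adjusted p = 0.0151) and was lower at 8 h than at 2 h (log2 -0.74 ± 0.14, adjusted p = 0.00545). At 8 h it averaged 25.8 ± 0.945 CPM, against 25.8 ± 4.07 CPM at 0 h. In siControl cells the same steps had log2 values of 0.44 ± 0.14 (edgeR adjusted p = 0.251) and -0.54 ± 0.14 (adjusted p = 0.0709), neither past the threshold (the first 0.45 without siControl 0 h replicate 2, adjusted p = 0.569), although the second was called by DESeq2 (adjusted p = 0.0193) and without the filter on low counts (0.0312). The difference between the 2 h responses, sip53 minus siControl, was 0.29 on the log2 scale with a 95% interval of -0.12 to 0.71 and an unadjusted p of 0.156, so the arms were not shown to differ. Without siControl 0 h replicate 2 the difference was 0.28.

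The 2 h call in sip53 cells did not survive the removal of sip53 0 h replicate 1 (adjusted p = 0.123), sip53 0 h replicate 3 (0.134), sip53 2 h replicate 2 (0.0878) or sip53 2 h replicate 3 (0.176), with log2 values of 0.64 to 0.87 over the 6 fits. The lower EGR1 level at 8 h than at 2 h was no longer called without sip53 2 h replicate 3 (adjusted p = 0.0628) and was called in the other 5 fits. Averages over both arms, a contrast chosen after seeing the data, placed EGR1 0.59 ± 0.10 higher at 2 h than at 0 h (edgeR adjusted p = 0.00229) and 0.64 lower at 8 h than at 2 h (log2 -0.64 ± 0.10, adjusted p = 0.000287). Both averaged calls held in each of 12 fits that left out a library, with adjusted p up to 0.0135 at 2 h against 0 h.

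The EGR1 promoter is shown because EGR1 was called at 2 h and again between 2 h and 8 h, and because this stretch holds CArG boxes. Elements of the gene that lie further upstream were not looked at. It is the 250 bases before the RefSeq start on GRCh38.p14 (chr5:138465229-138465478, forward strand), with capitals marking matches to an EGR element, GCGNGGGCG, and to CArG boxes.
EGR1: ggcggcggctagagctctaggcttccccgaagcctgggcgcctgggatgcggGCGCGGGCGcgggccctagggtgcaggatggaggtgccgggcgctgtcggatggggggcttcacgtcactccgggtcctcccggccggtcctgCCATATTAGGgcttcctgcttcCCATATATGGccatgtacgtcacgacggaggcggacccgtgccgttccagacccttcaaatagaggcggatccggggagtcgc
CArG boxes lie at -105 to -96 and -83 to -74 relative to the start, and the EGR element at -198 to -190. On either strand, a CArG box was found in 1.14% of 27305 RefSeq promoters of this length and an EGR element in 8.25%. Of the 8 genes of the set with an entry in that table, EGR1 was the one with a match to either motif. The full estrogen response element was found in 0 of the 8 and in 0.0439% of all promoters. The shorter unit AGGTCA was found in 0 of the 8 and in 12.1% of all promoters. A match describes letters in this window and is not evidence of binding.

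IER3, a stress-inducible regulator of cell survival and ERK signalling (ENSG00000137331, chr6:30743199-30744554 on GRCh38, reverse strand), moved the other way. In sip53 cells it stood at 55.0, 61.5 and 67.3 CPM at 0 h, 41.0, 36.1 and 40.1 CPM at 2 h, and 53.4, 38.4 and 42.9 CPM at 8 h. In siControl cells it stood at 57.2, 51.3 and 48.3 CPM at 0 h, 33.7, 35.4 and 44.2 CPM at 2 h, and 48.1, 37.2 and 39.2 CPM at 8 h. In each arm the libraries at 2 h and at 8 h all lay below those at 0 h. IER3 averaged 39.1 ± 2.59 CPM at 2 h and 61.3 ± 6.14 CPM at 0 h in sip53 cells, and fell by 0.65 on the log2 scale (SE 0.14, edgeR adjusted p = 0.0386). In siControl cells the 2 h value was -0.47 ± 0.14 (edgeR adjusted p = 0.209), and -0.47 also without siControl 0 h replicate 2. The sip53 call on IER3 failed in 5 of 6 fits that left out a library, without sip53 0 h replicate 2 (adjusted p = 0.125) or 3 (0.181) or sip53 2 h replicate 1 (0.121), 2 (0.24) or 3 (0.153), and with upper-quartile scaling (0.0502). Averaged over both arms, a contrast added after seeing the data, IER3 was lower at 2 h than at 0 h (log2 -0.56 ± 0.10, edgeR adjusted p = 0.00328) and at 8 h than at 0 h (-0.39 ± 0.10, adjusted p = 0.0124). Each of these calls held in all 12 fits without a library. IER3 overlaps the antisense gene IER3-AS1, and since the sources used here do not give the strand setting of the counting, reads of the pair cannot be told apart.

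At 2 h, then, 2 of the 10 genes were called in sip53 cells, beside 0.307% of all genes tested. Groups that did not overlap were found for 5 of the 10, beside 15.2% of all genes. In siControl cells 0 of the 10 were called at 2 h, beside 0.228% of all genes. There, edgeR gave 2 genes of the set an unadjusted p under 0.05, DESeq2 called 0, and 3 had groups that did not overlap, beside 13.7% of all genes. The sip53 and siControl comparisons use different libraries, whereas those at 2 h and 8 h within an arm share their 0 h libraries. Averaged over both arms, 2 of the 10 were called at 2 h against 0 h, beside 1.34% of all genes.

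**Figure D2:**
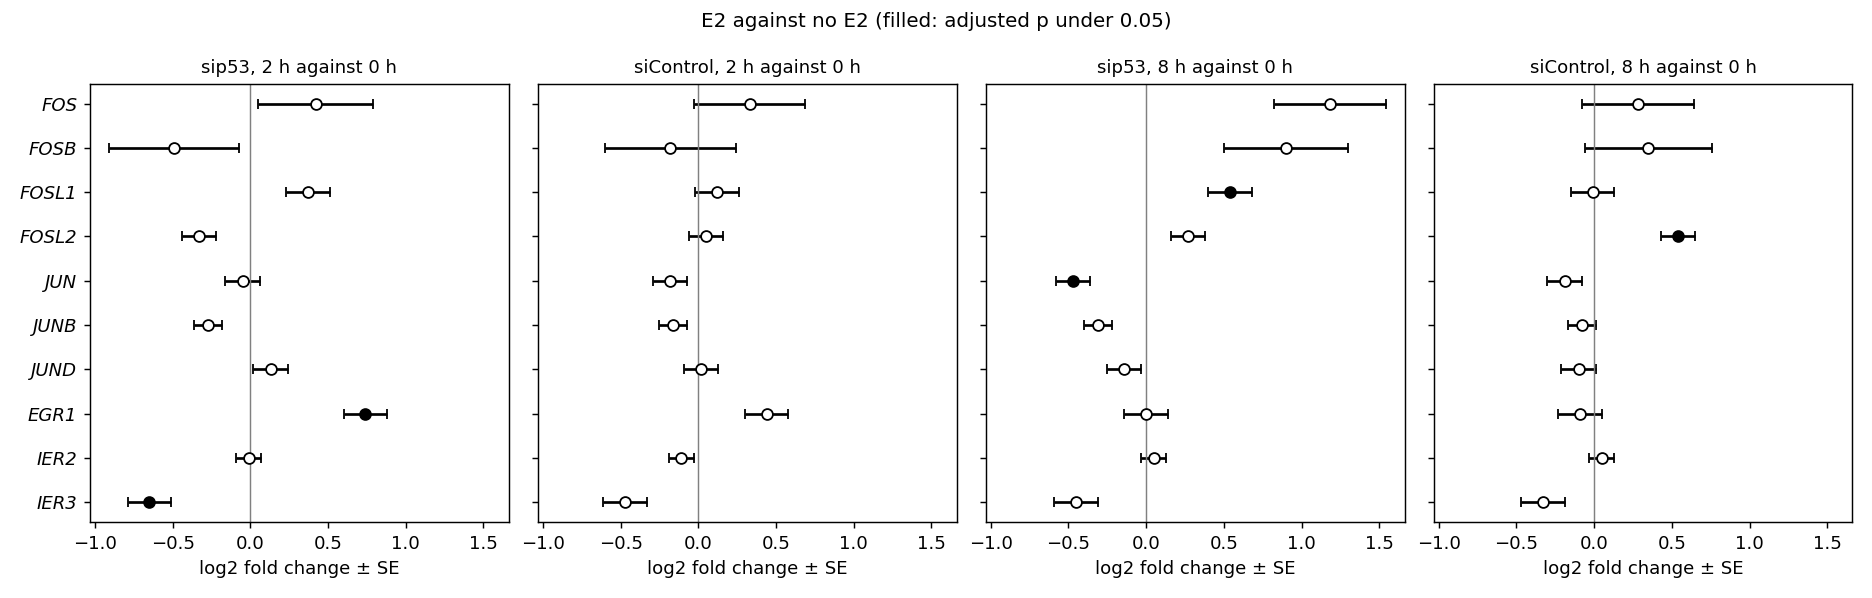
Log2 fold change of E2 against 0 h (x axis, bars of 1 standard error) for the 10 genes (rows) at 2 h and 8 h in each arm; filled points have an adjusted p under 0.05. At 2 h EGR1 lies at 0.74 in sip53 and 0.44 in siControl and IER3 at -0.65 and -0.47; at 8 h FOSL2 lies at 0.27 in sip53 and 0.54 in siControl.

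FOSL2, which encodes the Fos protein Fra-2 (ENSG00000075426, chr2:28392448-28417312 on GRCh38, forward strand), was called higher at 8 h than at 2 h in both arms. In sip53 cells its level was 71.4, 89.8 and 86.6 CPM at 0 h, 61.3, 66.1 and 69.4 CPM at 2 h, and 93.1, 99.8 and 106 CPM at 8 h. Those of siControl were at 63.4, 54.3 and 64.4 CPM at 0 h, 64.8, 59.4 and 64.1 CPM at 2 h, and 81.8, 97.1 and 85.6 CPM at 8 h. The libraries at 8 h were above those of both earlier times in each arm, and in sip53 cells those at 2 h were below those at 0 h. FOSL2 rose 1.52-fold at 8 h against 2 h in sip53 cells (log2 0.60 ± 0.11, edgeR adjusted p = 0.00261) and 1.40-fold in siControl cells (0.49 ± 0.11, adjusted p = 0.026). Against 0 h it rose at 8 h in siControl cells (0.54 ± 0.11, edgeR adjusted p = 0.00726), while the sip53 value was 0.27 ± 0.11 (adjusted p = 0.217).

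The arms entered E2 at different levels of FOSL2. At 0 h FOSL2 averaged 82.6 ± 9.84 CPM in sip53 cells and 60.7 ± 5.57 CPM in siControl cells, with no overlap, and was called higher (log2 0.44 ± 0.11, edgeR adjusted p = 0.0157). At 2 h the means were 65.6 ± 4.10 CPM in sip53 and 62.8 ± 2.95 CPM in siControl (log2 0.06 ± 0.11). At 8 h they were 99.8 ± 6.71 CPM in sip53 and 88.2 ± 8.00 CPM in siControl (log2 0.18 ± 0.11). The 0 h difference missed the threshold without siControl 0 h replicate 2, the library that stood apart (log2 0.38, adjusted p = 0.0636), without sip53 0 h replicate 2 (0.0773) or 3 (0.0865), and in a fit to the 2 groups alone (0.106). The 2 h response to E2, sip53 minus siControl, was -0.38 on the log2 scale (95% interval -0.70 to -0.06, unadjusted p = 0.0226; -0.33 without siControl 0 h replicate 2) and was not called among all genes.

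The FOSL2 increase between 2 h and 8 h in sip53 cells held in all 6 fits without a library, with adjusted p up to 0.0308. In siControl cells the same call was lost without siControl 2 h replicate 1 (adjusted p = 0.0672), 2 (0.139) or 3 (0.0776) or siControl 8 h replicate 2 (0.166) or 3 (0.0585). The siControl call at 8 h against 0 h was lost without siControl 0 h replicate 2 (log2 0.47, adjusted p = 0.0523), without siControl 8 h replicate 2 (0.0661), and in a fit to the 2 groups alone (0.0661). Averaged over both arms, which was added after seeing the data, FOSL2 was 0.55 ± 0.08 higher at 8 h than at 2 h (edgeR adjusted p = 8.47e-05) and 0.41 ± 0.08 higher than at 0 h (adjusted p = 0.00137), and both held in all 12 fits. FOSL2 overlaps the antisense gene FLJ31356, whose 3′ end, at 28384409, lies outside FOSL2. Any FLJ31356 reads in the FOSL2 count were not tested for.

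FOSL1, which encodes Fra-1, a Fos protein often high in invasive carcinoma (ENSG00000175592, chr11:65892049-65900573 on GRCh38, reverse strand), was lower in sip53 cells before E2. In sip53 cells it was 20.4, 23.0 and 22.4 CPM at 0 h, 30.5, 26.5 and 28.1 CPM at 2 h, and 31.9, 28.7 and 35.1 CPM at 8 h. The siControl libraries were at 40.1, 32.3 and 32.1 CPM at 0 h, 43.4, 38.0 and 32.6 CPM at 2 h, and 41.6, 31.3 and 31.6 CPM at 8 h. The arms did not overlap at 0 h or at 2 h and overlapped at 8 h. At 0 h FOSL1 averaged 21.9 ± 1.39 CPM in sip53 and 34.9 ± 4.57 CPM in siControl, 0.627 times as much (log2 -0.67 ± 0.14, edgeR adjusted p = 0.00718). This call held in all 6 fits without a library and reached -0.71 without siControl 0 h replicate 2 (adjusted p = 0.0113). In bulk samples, fewer cells that express a gene and less of its RNA in each cell cannot be told apart.

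At 2 h the FOSL1 log2 value, sip53 against siControl, was -0.42 ± 0.14 (edgeR adjusted p = 0.0543). It was called by DESeq2 (adjusted p = 0.037), in a fit to the 2 groups alone (0.0225) and without siControl 2 h replicate 3 (log2 -0.51, adjusted p = 0.0456). At 8 h it was -0.13 ± 0.14 (adjusted p = 0.635), and 0.03 without siControl 8 h replicate 1. Within sip53 cells FOSL1 rose 1.46-fold at 8 h against 0 h (log2 0.54 ± 0.14, edgeR adjusted p = 0.042). That call held without sip53 8 h replicate 2 (0.0423) and was lost without each of the other 5 libraries (sip53 0 h replicates 1 to 3 at 0.147, 0.075 and 0.101, sip53 8 h replicates 1 and 3 at 0.099 and 0.185). In siControl cells the same value was -0.01 ± 0.14, and -0.06 without siControl 0 h replicate 2. The 8 h response, sip53 minus siControl, was 0.55 on the log2 scale (95% interval 0.13 to 0.97, unadjusted p = 0.0127; 0.58 without that library) and was not called among all genes.

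JUN, which encodes c-Jun, the Jun protein with the strongest activating activity in AP-1 (ENSG00000177606, chr1:58780788-58784327 on GRCh38, reverse strand), was lower in sip53 cells at 8 h. In sip53 cells it stood at 126, 116 and 103 CPM at 0 h, 114, 116 and 103 CPM at 2 h, and 88.3, 86.2 and 74.0 CPM at 8 h. Its siControl values were 130, 136 and 148 CPM at 0 h, 115, 124 and 127 CPM at 2 h, and 131, 125 and 107 CPM at 8 h. At 8 h every sip53 library lay below every siControl library and below every earlier sip53 library. At 8 h JUN averaged 82.9 ± 7.75 CPM in sip53 and 121 ± 12.3 CPM in siControl, 0.687 times as much (log2 -0.54 ± 0.11, edgeR adjusted p = 0.00325). The call held in all 6 fits without a library, with adjusted p up to 0.0393. The 0 h value was -0.26 ± 0.11 (edgeR adjusted p = 0.116, and 0.198 without siControl 0 h replicate 2), without overlap between the arms, and the 2 h value -0.13 ± 0.11 (adjusted p = 0.471).

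Within sip53 cells JUN was lower at 8 h than at 0 h (log2 -0.47 ± 0.11, edgeR adjusted p = 0.0133) and than at 2 h (-0.42 ± 0.11, adjusted p = 0.0432). The first of these was not kept without sip53 0 h replicate 1 (adjusted p = 0.0808), sip53 0 h replicate 2 (0.0542) or sip53 8 h replicate 3 (0.112), and in a fit to the 2 groups alone (0.0603). The second was lost without any of the 6 libraries (sip53 2 h replicates 1 to 3 at 0.178, 0.221 and 0.068, sip53 8 h replicates 1 to 3 at 0.0659, 0.0856 and 0.222). In siControl cells JUN was at -0.19 ± 0.11 at 8 h against 0 h (edgeR adjusted p = 0.367). The difference between the arms in the 8 h response was -0.28 on the log2 scale with a 95% interval of -0.59 to 0.03. Without siControl 0 h replicate 2 these JUN values were -0.20 and -0.28. Averaged over both arms, added after seeing the data, JUN was lower at 8 h than at 0 h (-0.33 ± 0.07, edgeR adjusted p = 0.00571) in all 12 fits without a library.

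The JUN promoter is shown because JUN was called lower at 8 h and because the element by which AP-1 is known to act on its own gene lies there. It is given 5′ to 3′ on the gene's strand as the 250 bases before the RefSeq start on GRCh38.p14 (chr1:58784048-58784297, reverse strand), with the element TGACATCA in capitals.
JUN: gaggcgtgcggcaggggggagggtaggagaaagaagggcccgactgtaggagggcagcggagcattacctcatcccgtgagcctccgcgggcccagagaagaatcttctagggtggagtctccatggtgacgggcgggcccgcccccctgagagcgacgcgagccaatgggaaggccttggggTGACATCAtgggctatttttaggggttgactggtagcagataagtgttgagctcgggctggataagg
The match lies at -67 to -60 relative to the start, and TGACATCA on either strand was found in 2.45% of the 27305 promoters. The element TGANTCA, the usual AP-1 sequence, was found in 0 of the 8 promoters of the set and in 6.60% of all. The cyclic AMP response element TGACGTCA was found in JUND, at -200 to -193, and in 1.77% of all. These motifs do not overlap one another, and no match says only that the letters are not in this window.

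JUNB and JUND, which encode Jun proteins that restrain growth in many cells, and IER2, a nuclear immediate-early protein, were called in 0 of the 9 pairwise comparisons. JUNB (ENSG00000171223, chr19:12791496-12793315, forward strand) averaged 371 ± 22.6, 308 ± 26.2 and 300 ± 14.9 CPM at 0, 2 and 8 h in sip53 cells, against 329 ± 35.0, 294 ± 9.61 and 311 ± 17.4 CPM in siControl cells. Every sip53 library at 2 h or 8 h lay below every sip53 library at 0 h, with log2 values of -0.27 ± 0.09 at 2 h (edgeR adjusted p = 0.462) and -0.31 ± 0.09 at 8 h (adjusted p = 0.0823). DESeq2 called the JUNB 8 h value in sip53 cells (adjusted p = 0.0211). In siControl cells the JUNB 2 h value was -0.16 ± 0.09 (edgeR adjusted p = 0.536), and -0.24 without siControl 0 h replicate 2 (edgeR adjusted p = 0.694). JUNB stood at 288 CPM in that library, against 350 and 348 CPM in its fellow replicates. Between the arms at 0 h JUNB was at 0.18 ± 0.09, and at 0.10 without that library. JUND (ENSG00000130522, chr19:18279760-18281622, reverse strand) averaged 92.8 ± 4.66, 101 ± 15.5 and 84.1 ± 9.86 CPM at 0, 2 and 8 h in sip53 cells, against 98.2 ± 3.18, 99.7 ± 6.92 and 91.4 ± 2.58 CPM in siControl cells. IER2 (ENSG00000160888, chr19:13150415-13154908, forward strand) averaged 741 ± 28.3, 734 ± 65.6 and 767 ± 25.6 CPM in sip53 cells, against 723 ± 23.6, 672 ± 40.1 and 746 ± 20.5 CPM in siControl cells. IER2 log2 values over these comparisons ran from -0.11 to 0.15. JUNB lies within the opposite-strand gene HOOK2, whose 3′ end, at 12763003, lies outside JUNB. Any HOOK2 reads in the JUNB count were not tested for. IER2 overlaps the antisense gene AC011446.2, and reads from the stretch they share cannot be told apart without the strand setting.

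FOS, the prototype immediate-early gene that encodes c-Fos (ENSG00000170345, chr14:75278774-75282230 on GRCh38, forward strand), was higher at 8 h in sip53 cells without passing the threshold. In sip53 cells it stood at 2.99, 2.14 and 1.55 CPM at 0 h, 3.02, 2.21 and 3.70 CPM at 2 h, and 5.42, 5.08 and 4.75 CPM at 8 h. In siControl cells it stood at 2.40, 5.0 and 2.44 CPM at 0 h, 3.63, 3.21 and 5.44 CPM at 2 h, and 3.94, 2.90 and 5.02 CPM at 8 h. The sip53 libraries at 8 h lay above all earlier ones, while the siControl times overlapped. The 8 h value against 0 h was 1.18 ± 0.36 on the log2 scale in sip53 cells (edgeR adjusted p = 0.0814, DESeq2 adjusted p = 0.0401) and 0.28 ± 0.36 in siControl cells (edgeR adjusted p = 0.741). The difference between the arms was 0.90 with a 95% interval of -0.14 to 1.94. The siControl value and this difference rest on siControl 0 h replicate 2, in which FOS stood at 5.0 CPM. Without it the siControl value was 0.71 (edgeR adjusted p = 0.492) and the difference between the arms 0.46.

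FOSB (ENSG00000125740, chr19:45467995-45475179, forward strand), whose protein is close to c-Fos, was about as low. In sip53 cells it stood at 2.79, 2.57 and 3.84 CPM at 0 h, 3.47, 1.90 and 1.17 CPM at 2 h, and 6.93, 6.80 and 3.42 CPM at 8 h. Its siControl values were 3.00, 4.62 and 2.81 CPM at 0 h, 2.04, 2.86 and 4.28 CPM at 2 h, and 5.80, 2.56 and 4.92 CPM at 8 h. Groups overlapped in every comparison of FOSB. The 8 h against 2 h value in sip53 cells was 1.38 ± 0.41 (edgeR adjusted p = 0.108), and it was called by DESeq2 (adjusted p = 0.0363) and without the filter on low counts (0.0232). FOSB shares its locus with the opposite-strand gene ERCC1, whose 3′ end, at 45407333, lies outside FOSB. Any ERCC1 reads in the FOSB count were not tested for. At the depth of these libraries values as large as 1.18 for FOS and 1.38 for FOSB did not pass edgeR's threshold, so smaller changes of these genes may have gone undetected.

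At 8 h against 0 h, 2 of the 10 genes were called in sip53 cells, beside 2.74% of all genes tested, and 1 in siControl cells, beside 2.60%. At 8 h against 2 h, 3 were called in sip53 cells, beside 1.38%, and 1 in siControl cells, beside 1.02%. Groups without overlap were found at 8 h against 0 h for 6 of the 10 in sip53 cells, beside 19.6% of all genes, and for 3 in siControl cells, beside 19.4%. At 8 h against 2 h they were found for 4 in each arm, beside 20.4% of all genes in sip53 and 18.3% in siControl. Averaged over both arms, 3 were called at 8 h against 0 h, beside 9.60% of all genes, and 2 at 8 h against 2 h, beside 5.70%. The difference in the E2 response between the arms was called for 0 of the 10 at 2 h and 0 at 8 h, beside 0% of all genes at each time. edgeR gave 1 gene of the set at each time an unadjusted p under 0.05, against 451 of all genes at 2 h and 583 at 8 h. DESeq2 called 1 gene at 2 h and 2 at 8 h, 0 of them in the set.

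**Figure D3:**
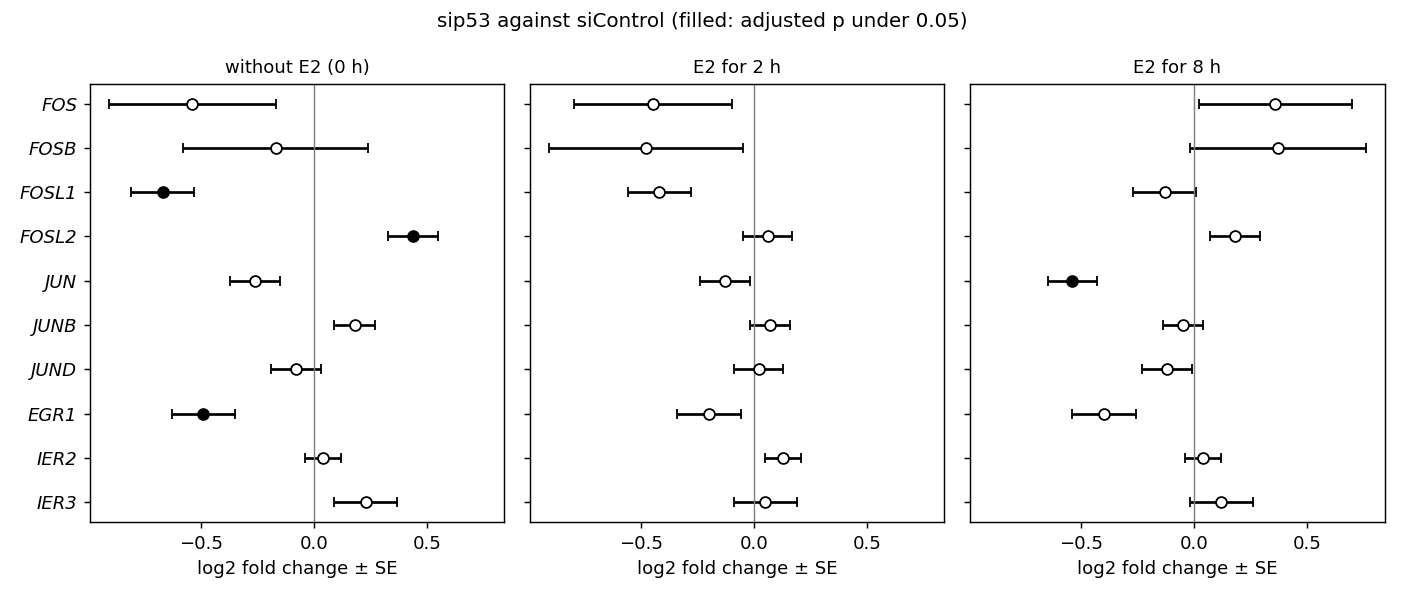
Log2 fold change of sip53 against siControl (x axis, bars of 1 standard error) for the 10 genes at 0, 2 and 8 h of E2; filled points have an adjusted p under 0.05. FOSL1 lies at -0.67, -0.42 and -0.13 at 0, 2 and 8 h, JUN at -0.26, -0.13 and -0.54, EGR1 at -0.49, -0.20 and -0.40, and FOSL2 at 0.44, 0.06 and 0.18.

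Between sip53 and siControl some of the 10 genes were higher and others lower. At 0 h, 3 were called, FOSL2 higher and FOSL1 and EGR1 lower, beside 9.12% of all genes, and 1, FOSL1, without siControl 0 h replicate 2. EGR1 averaged 25.8 ± 4.07 CPM in sip53 and 36.4 ± 5.05 CPM in siControl at 0 h (log2 -0.49 ± 0.14, edgeR adjusted p = 0.0348), and its arms did not overlap. That call failed without sip53 0 h replicate 1 (adjusted p = 0.0871) or 3 (0.183), siControl 0 h replicate 2 (0.085) or 3 (0.154), and in a fit to the 2 groups alone (0.129). At 2 h, 0 were called by edgeR, beside 12.2% of all genes, with 1 gene of the set at an unadjusted p under 0.05 and FOSL1 called by DESeq2. At 8 h JUN was called, beside 8.96% of all genes, and EGR1 stood at -0.40 ± 0.14 (edgeR adjusted p = 0.0799) without overlap between the arms. Groups without overlap numbered 4 of the 10 at 0 h, 1 at 2 h and 2 at 8 h, beside 24.5%, 33.2% and 29.5% of all genes. The median log2 value of the 10 genes was -0.13 at 0 h, -0.05 at 2 h and -0.01 at 8 h, beside 0.00, 0.00 and 0.01 over all genes.

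Averaged over the 3 times, a contrast added after seeing the data, 4 of the 10 were called, beside 34.6% of all genes, so the share is near the background. FOSL1 was lower by this measure (log2 -0.41 ± 0.08, edgeR adjusted p = 0.000552), as were EGR1 (-0.37 ± 0.08, adjusted p = 0.00139) and JUN (-0.31 ± 0.06, adjusted p = 0.000394). FOSL2 was higher (0.23 ± 0.06, edgeR adjusted p = 0.00702). All 4 averaged calls held in each of 18 fits without a library. Beside these, the summed level of the 15 epithelial and ovarian carcinoma markers ran from 7240 to 8590 CPM in the sip53 libraries and from 5880 to 6540 CPM in the siControl libraries. HSPB1, a small heat shock protein, was higher in sip53 at 0, 2 and 8 h (log2 0.60, 0.73 and 0.62), and the part of either in the results on the 10 genes was not tested.

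**Figure D4:**
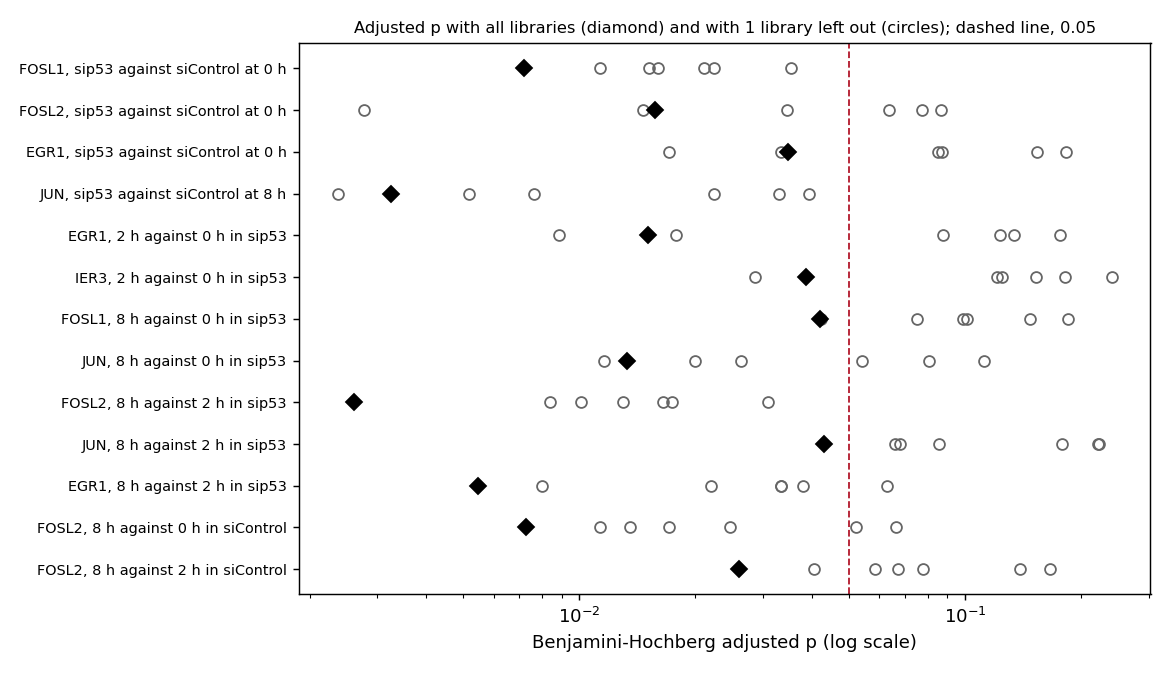
Benjamini-Hochberg adjusted p (x axis, log scale) of the 13 calls on the 10 genes in pairwise comparisons, with all libraries (diamonds) and with each of the 6 compared libraries left out in turn (circles); the dashed line is 0.05. FOSL1 at 0 h, JUN at 8 h and FOSL2 at 8 h against 2 h in sip53 stay left of the line in all 6 fits, whereas JUN at 8 h against 2 h in sip53 stays left of it in 0.

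Over the 18 libraries the 10 genes did not move as a block. Among their 45 pairs the Pearson correlation of log2 CPM, given as a description over libraries that share groups and scaling, was lowest between FOS and JUNB (-0.72) and FOSL2 and JUN (-0.69). It was highest for JUND with EGR1 (0.65) and JUNB with IER3 (0.65). Genes outside the set with the most similar pattern, among 9478 candidates, were LRP11, CALHM2 and BCL3 for FOSL2 (r = 0.95, 0.93 and 0.93). For JUN they were ADAMTS9, SAFB2 and FRMD4B (r = 0.92, 0.92 and 0.90), for FOSL1 LARP1, ZNF195 and PTP4A1 (0.84, 0.83 and 0.83), and for IER3 ID2, RBBP5 and HDAC5 (0.85, 0.81 and 0.78). For EGR1 they were FAM43A, TMCC3 and LPL (r = 0.80, 0.80 and 0.79), and for JUND STING1, USP11 and KDSR (0.86, 0.81 and 0.81). For IER2 they were SH3BP5L, JADE2 and JPT2 (0.84, 0.83 and 0.83), for JUNB EPHB3, ZNF304 and DUSP5 (0.78, 0.73 and 0.72), and for FOS FXYD3, PAQR4 and COBL (0.80, 0.78 and 0.76). For FOSB they were ZBTB14, 7SK and RNU1-28P (0.83, 0.82 and 0.82), of which the last pair are non-coding RNAs with near-identical copies and are uncertain.

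Within an arm, other immediate-early genes were called at 8 h of E2 and not at 2 h. Of 30 on the list 25 passed the filter, and 0 of them were called at 2 h of E2 in either arm, where the list's median log2 value was -0.17 in sip53 and -0.10 in siControl, beside -0.01 over all genes in each. At that time edgeR gave 4 of them in sip53 and 7 in siControl an unadjusted p under 0.05, and DESeq2 called 0 in each arm. Leaving out a library gave up to 1 call, in siControl. Averaged over both arms, added after seeing the data, 0 were higher and 1 lower at 2 h against 0 h, beside 1.34% of all genes. At 8 h against 0 h, 1 was higher and 3 lower in sip53 cells, beside 2.74% of all genes, and 2 were higher and 2 lower in siControl cells, beside 2.60%. With a library left out these counts were 1 higher and 2 to 4 lower in sip53, and 1 to 4 higher and 0 to 2 lower in siControl (1 and 0 without siControl 0 h replicate 2). HES1, a Notch and early-response repressor, rose in both arms, with 310 ± 67.7 CPM at 8 h and 129 ± 11.1 CPM at 0 h in sip53 cells (log2 1.26 ± 0.18, edgeR adjusted p = 0.000125) and a log2 value of 1.05 ± 0.18 in siControl cells (adjusted p = 0.00159), which was 0.82 without siControl 0 h replicate 2 (adjusted p = 0.00548). TRIB1, a pseudokinase that binds MEK, fell in both, by 0.80 in sip53 cells (edgeR adjusted p = 0.000104) and by 0.57 in siControl cells (adjusted p = 0.00589, 0.0603 without siControl 0 h replicate 2 and 0.0977 in a fit to the 2 groups alone). SGK1, a hormone- and serum-induced kinase, fell by 0.97 in sip53 cells (edgeR adjusted p = 0.0012).

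In sip53 against siControl 2, 2 and 0 of these immediate-early genes were higher and 1, 2 and 2 lower at 0, 2 and 8 h, beside 9.12%, 12.2% and 8.96% of all genes called. Over the fits without a library, the number higher was 0 to 5, 0 to 2 and 0, and the number lower 0 to 1, 0 to 3 and 2 to 4 (1 higher and 0 lower at 0 h without siControl 0 h replicate 2). ID3, an inhibitor of helix-loop-helix factors, was higher at 0 h (log2 0.69 ± 0.16, edgeR adjusted p = 0.0097). The ID3 call was lost without sip53 0 h replicate 3 (0.0571) and in a fit to the 2 groups alone (0.0638), and its log2 value was 0.51 without siControl 0 h replicate 2. SGK1 was higher at 0 h (0.64 ± 0.17, edgeR adjusted p = 0.0205), which was lost without sip53 0 h replicate 2 (0.0553) or 3 (0.0644) or siControl 0 h replicate 2 (0.0531) or 3 (0.0675). RHOB, a small GTPase, was higher at 2 h (0.82 ± 0.22, edgeR adjusted p = 0.0186), which was lost without sip53 2 h replicate 2 (0.0585) or 3 (0.0697) or siControl 2 h replicate 1 (0.0887) or 3 (0.0561). Serum response factor, SRF, also on this list, was higher at 2 h (0.45 ± 0.12, edgeR adjusted p = 0.0194), a call lost without sip53 2 h replicate 3 (0.101) or siControl 2 h replicate 2 (0.0894) or 3 (0.0519). PPP1R15A, a stress-induced phosphatase subunit, was lower at 0, 2 and 8 h, by 0.44, 0.40 and 0.70 on the log2 scale (edgeR adjusted p = 0.0129, 0.0145 and 0.000333). The PPP1R15A call at 8 h held in all 6 fits without a library. That at 0 h was lost without sip53 0 h replicate 2 (0.0595) or 3 (0.0735) or siControl 0 h replicate 2 (0.0502) and in a fit to the 2 groups alone (0.0795), and that at 2 h without sip53 2 h replicate 1 (0.0636) or 3 (0.0628) or siControl 2 h replicate 2 (0.0657). BTG1, an antiproliferative early gene, was lower at 8 h (294 ± 33.2 CPM in sip53 and 442 ± 48.7 CPM in siControl, log2 -0.59 ± 0.10, edgeR adjusted p = 0.00114) in all 6 fits.

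Genes by which ERK signalling limits itself were measured because they share inducers with FOS and EGR1. Of 21 on the list 19 passed the filter, and in sip53 against siControl 0, 1 and 0 were higher and 1, 2 and 4 lower at 0, 2 and 8 h, with list medians of -0.14, -0.15 and -0.25 beside 0.00, 0.00 and 0.01 over all genes. Of all genes 9.12%, 12.2% and 8.96% were called at these times. With a library left out the number higher was 0 to 1, 1 and 0 to 1, and the number lower 0 to 1, 0 to 2 and 2 to 3. ETV5, an ETS factor induced by ERK, averaged 21.4 ± 2.73 CPM in sip53 and 35.1 ± 5.12 CPM in siControl at 8 h (log2 -0.72 ± 0.16, edgeR adjusted p = 0.00678). PHLDA1, a growth-factor-induced pleckstrin homology protein, averaged 48.0 ± 0.742 CPM in sip53 and 67.9 ± 4.11 CPM in siControl (log2 -0.50 ± 0.11, edgeR adjusted p = 0.00759). Both held in all 6 fits. DUSP5 went the other way and was higher in sip53 at 2 h (log2 0.43 ± 0.10, edgeR adjusted p = 0.00534), also in all 6 fits. The 8 h call on SPRY4 (adjusted p = 0.0442), at 0.834 ± 0.398 CPM in sip53 and 2.87 ± 0.358 CPM in siControl, was lost without any of the 6 libraries and with a replicate block (0.0547). That on DUSP6 (adjusted p = 0.045) was lost without sip53 8 h replicate 1 (0.185) or 3 (0.0941) or siControl 8 h replicate 1 (0.0761) or 2 (0.293), with upper-quartile scaling (0.0509), with a replicate block (0.0548) and in a fit to the 2 groups alone (0.086). At 8 h against 0 h, 0 of this list were higher and 1 lower in sip53 cells, beside 2.74% of all genes. In siControl cells 1 was higher and 1 lower, beside 2.60% (1 and 1 without siControl 0 h replicate 2). At 8 h against 2 h, 0 were higher and 1 lower in sip53, beside 1.38%, and 1 and 1 in siControl, beside 1.02%. In response to E2, DUSP6, the ERK phosphatase, averaged 29.1 ± 3.52, 39.2 ± 0.889 and 20.2 ± 3.13 CPM at 0, 2 and 8 h in sip53 cells, and was called lower at 8 h than at 2 h (log2 -0.96 ± 0.15, edgeR adjusted p = 0.000749). In siControl cells DUSP6 averaged 28.5 ± 6.75 CPM at 8 h and 43.5 ± 0.885 CPM at 2 h (log2 -0.61 ± 0.15, edgeR adjusted p = 0.0495), a call lost in 5 of 6 fits without a library and with a replicate block (0.0654). DUSP6 at 2 h against 0 h stood at 0.43 ± 0.15 in sip53 and 0.37 ± 0.15 in siControl cells (edgeR adjusted p = 0.46 and 0.35). DUSP5 was lower at 8 h than at 0 h in sip53 cells (log2 -0.53 ± 0.10, edgeR adjusted p = 0.00211), in all 6 fits. In siControl cells it was lower too (-0.44 ± 0.10, edgeR adjusted p = 0.0138, -0.47 without siControl 0 h replicate 2). That call was lost without siControl 0 h replicate 3 (0.0567) or siControl 8 h replicate 2 (0.0683), and in a fit to the 2 groups alone (0.1). PHLDA1 was higher at 8 h than at 0 h in siControl cells (log2 0.54 ± 0.11, edgeR adjusted p = 0.0096). It was 0.48 without siControl 0 h replicate 2 (0.0539), and was not called in a fit to the 2 groups alone (0.0651). DUSP8 was higher at 8 h than at 2 h there (0.75 ± 0.14, edgeR adjusted p = 0.00737). The DUSP8 call was lost without siControl 2 h replicate 3 (0.0683) or siControl 8 h replicate 3 (0.0556).

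Among kinases and factors upstream of FOS, JUN and EGR1, all 31 on the list passed the filter. In sip53 against siControl 0, 3 and 0 were higher and 1, 1 and 1 lower at 0, 2 and 8 h, with list medians of 0.05, 0.06 and -0.03, beside 9.12%, 12.2% and 8.96% of all genes called. When a library was removed the number higher was 0 to 3, 0 to 3 and 0, and the number lower 1, 0 to 2 and 1 to 2. ATF1, a CREB-family activator, was lower at 0 h (16.1 ± 0.941 CPM in sip53 and 25.2 ± 2.91 CPM in siControl, log2 -0.64 ± 0.15, edgeR adjusted p = 0.0104) and at 8 h (-0.80 ± 0.15, adjusted p = 0.00206), in all 6 fits without a library each. The 0 h value of ATF1 was -0.72 without siControl 0 h replicate 2, and in a fit to the 2 groups alone its call was lost (0.0637). SRF, on this list too, was among those higher at 2 h. At 2 h of E2 edgeR and DESeq2 called 0 of the 31 in either arm, with an unadjusted p under 0.05 for 2 in sip53 and 6 in siControl and list medians of -0.04 in sip53 and 0.01 in siControl.

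Of 14 other bZIP genes of the AP-1 family, 11 passed the filter. ATF3, a stress-induced partner of Jun proteins, was lower in sip53 at 8 h (19.2 ± 2.95 CPM in sip53 and 28.8 ± 2.25 CPM in siControl, log2 -0.58 ± 0.14, edgeR adjusted p = 0.0108), which was lost without sip53 8 h replicate 3 (0.103) or siControl 8 h replicate 1 (0.079). Of this list, edgeR and DESeq2 called 0 at 0 h and 0 at 2 h, with 4 at an unadjusted p under 0.05 at each, and the list medians were -0.34, 0.04 and -0.22 at 0, 2 and 8 h. With a library left out up to 3 of the list were called lower at 0 h (0 without siControl 0 h replicate 2), 0 at 2 h and 0 to 2 at 8 h. Of all genes 9.12%, 12.2% and 8.96% were called at these times. In sip53 cells CREB5, a CREB-family bZIP factor, fell by 0.68 at 8 h against 0 h (edgeR adjusted p = 0.000789), in all 6 fits. In siControl cells CREB5 stood at -0.39 ± 0.11 (edgeR adjusted p = 0.0641).

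Between sip53 and siControl, textbook AP-1 target genes were called in both directions. Of 35 on the list 25 passed the filter, and in sip53 against siControl 1, 1 and 0 were higher and 3, 3 and 2 lower at 0, 2 and 8 h, with list medians of 0.02, 0.00 and 0.01, beside 9.12%, 12.2% and 8.96% of all genes called. Over the fits without a library the number higher was 0 to 5, 0 to 1 and 0, and the number lower 1 to 3, 3 and 1 (0 higher and 2 lower at 0 h without siControl 0 h replicate 2). The higher genes were NQO1 at 0 h (edgeR adjusted p = 0.0478, 0.193 without that library) and MT2A at 2 h (0.0294). NQO1 was kept in 1 of 6 fits and MT2A in 2. At 8 h against 0 h, 3 were higher and 0 lower in each arm, beside 2.74% of all genes in sip53 and 2.60% in siControl. Without siControl 0 h replicate 2 the siControl counts were 2 and 0. F3, tissue factor, the initiator of coagulation, averaged 27.5 ± 1.27 CPM in sip53 and 52.7 ± 11.7 CPM in siControl at 0 h (log2 -0.94 ± 0.14, edgeR adjusted p = 0.000521, and log2 -1.10 without siControl 0 h replicate 2). It rose at 2 h of E2 in both arms, by 1.52 ± 0.14 in sip53 cells (edgeR adjusted p = 9.11e-07) and 0.91 ± 0.14 in siControl cells (adjusted p = 0.00123), in all 6 fits each. The siControl rise of F3 was 0.75 without siControl 0 h replicate 2, and in a fit to the 2 groups alone its call was lost (0.0849). HBEGF, an EGF receptor ligand, was lower in sip53 at 0, 2 and 8 h, by 0.37, 0.46 and 0.53 on the log2 scale (edgeR adjusted p = 0.0172, 0.00312 and 0.00132). The HBEGF calls at 2 h and 8 h held in all 6 fits, and that at 0 h was lost without sip53 0 h replicate 2 (0.0892) or 3 (0.0607) or siControl 0 h replicate 2 (0.0666), and in a fit to the 2 groups alone (0.0962). VEGFA, an angiogenic factor, was lower in sip53 at 2 h (14.2 ± 1.65 CPM in sip53 and 25.8 ± 3.30 CPM in siControl, log2 -0.87 ± 0.17, edgeR adjusted p = 0.00205). At 8 h against 0 h VEGFA rose in both arms, by 0.98 ± 0.17 in sip53 and 0.88 ± 0.16 in siControl cells (edgeR adjusted p = 0.00112 and 0.00336), in all 6 fits each, with 0.81 in siControl cells without siControl 0 h replicate 2. PLAUR, the urokinase receptor, was lower in sip53 at 2 h (-0.54, edgeR adjusted p = 0.00258) in all 6 fits.

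Factors that degrade AU-rich mRNAs, the class to which many immediate-early transcripts belong, included called genes in each comparison of sip53 with siControl. All 15 on the list passed the filter, and in sip53 against siControl 2, 3 and 3 were higher and 1, 2 and 2 lower at 0, 2 and 8 h, with medians of 0.05, -0.02 and 0.08, beside 9.12%, 12.2% and 8.96% of all genes called. With a library left out the number higher was 1 to 4, 1 to 3 and 0 to 2, and the number lower 1, 1 to 2 and 2 (1 and 1 at 0 h without siControl 0 h replicate 2). In the 6 comparisons between times within an arm edgeR called 0, DESeq2 called 0 to 1, and 1 to 4 had an unadjusted p under 0.05. XRN1, the 5′ to 3′ exonuclease, averaged 51.1 ± 2.97 CPM in sip53 and 99.1 ± 14.1 CPM in siControl at 2 h (log2 -0.96 ± 0.15, edgeR adjusted p = 0.000394), and was lower at 0 h (-0.73 ± 0.15, adjusted p = 0.00436, and -0.75 without siControl 0 h replicate 2) and 8 h (-0.84 ± 0.15, adjusted p = 0.00128), in all 6 fits each. CNOT6, a deadenylase, was higher at 2 h (91.4 ± 9.56 CPM in sip53 and 54.7 ± 6.41 CPM in siControl, log2 0.74 ± 0.12, edgeR adjusted p = 0.000646). ZFP36L1, which binds AU-rich elements, was higher at 0 h (773 ± 16.7 CPM in sip53 and 561 ± 71.0 CPM in siControl, log2 0.46 ± 0.09, edgeR adjusted p = 0.00289), in all 6 fits without a library (0.38 without siControl 0 h replicate 2) and not in a fit to the 2 groups alone (0.0637).

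Heat shock genes, measured because handling of cells can raise them together with FOS and EGR1, included 0 that edgeR called at 2 h of E2 in either arm, with 3 in sip53 and 2 in siControl at an unadjusted p under 0.05 and 1 called by DESeq2 in sip53. Averaged over both arms, added after seeing the data, edgeR called 2 lower at 2 h than at 0 h, beside 1.34% of all genes. DESeq2 called 2 in that contrast. With a library left out edgeR called 1 to 2 lower, and 1 without siControl 0 h replicate 2. The part of these genes in the 2 h values of the 10 genes was not tested. Of 12 on the list, all measured, 2, 1 and 4 were higher and 0 lower in sip53 against siControl at 0, 2 and 8 h, with medians of 0.18, 0.13 and 0.18, beside 9.12%, 12.2% and 8.96% of all genes called. When a library was removed the number higher was 1 to 4, 1 to 2 and 1 to 4, and 1 at 0 h without siControl 0 h replicate 2. HSPB1 averaged 548 ± 46.2 CPM in sip53 and 362 ± 27.6 CPM in siControl at 0 h (log2 0.60 ± 0.10, edgeR adjusted p = 0.0012, and 0.65 without siControl 0 h replicate 2), and its calls at the 3 times held in all 6 fits each. HSPA1A fell at 8 h against 0 h by 0.88 in sip53 cells (71.3 ± 7.44 CPM at 8 h and 131 ± 8.50 CPM at 0 h, edgeR adjusted p = 0.000211) and by 1.10 in siControl cells (adjusted p = 1.94e-05, and log2 -1.23 without siControl 0 h replicate 2). HSPA1A and HSPA1B are near-identical copies, so reads may be split between them, and their part in the 8 h values of the 10 genes was not tested.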

How the data were processed

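RNA of 18 samples was sequenced with the QuantSeq 3′ FWD kit from 200 ng of RNA with 16 PCR cycles, per the labels' protocols. The authors deposited 1 table of RSEM expected counts per gene, and the submitters' processing notes name cutadapt, Bowtie2, RSEM 1.3.3, MultiQC and build hg19. Neither the annotation nor the strand setting is given in the sources used here. Values in the deposited table of expected counts were whole, so rounding moved 0 of them. Of 57736 rows, each a set of Ensembl transcripts, 52673 were named by a single gene through GENCODE v29 (GRCh38), and rows without a name held 0.635% of counts. Since the counts were made on another build, coordinates printed are those of GRCh38.

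Counts were tested with edgeR 4.0.16 in R 4.3.3 (filterByExpr with minimum count 10, TMM, quasi-likelihood fit to all 18 libraries with 1 coefficient per group, 11 contrasts, no replicate block). The biological coefficient of variation was 15.2%. Replicates differed by more than counting noise (chi-square per degree of freedom 4.04 to 22.9), so 0 libraries were merged. An exact permutation test on 3 against 3 samples cannot go below 0.1, so single-gene permutation was not used. On simulated counts for sip53 against siControl at 0 h, run on 14789 genes, the fit recovered 10% of 100 genes changed by 0.5 on the log2 scale and 87% of 100 changed by 1, with median fitted values of 0.513 and 0.977. The simulation gave all genes the same dispersion and changed fewer genes than were called in the data at 0 h. Genes with low counts, such as FOS and FOSB, were not among those changed. These shares are therefore not the power of the real comparisons. Intervals are 95%. Correlations used log2 CPM with a prior count of 2 and candidates with a mean log2 CPM of at least 3.

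The 10 genes, the 7 lists and the rules were chosen with earlier results of these data known. The rule named all 10 genes, up to 4 called genes of each list per direction and comparison with the smallest adjusted p, and the 3 genes most like each in pattern. Genes named by it in a comparison are also given in others. 4 averaged contrasts were added after seeing the data. Promoters came from RefSeq (GRCh38.p14), where 8 of the 10 genes had an entry. FOSL1 and IER3 had none there. Alternatives were RLE and upper-quartile scaling, DESeq2 1.42.0, no filter on low counts, a replicate block, a fit to the groups compared, and leaving out each library. Results of some single genes, the transcript targeted by the siRNA among them, are not reported here.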

Additional observations from a re-analysis of the deposited data

How the results depend on the processing

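The number of the 10 genes called changed with the tool and with the libraries fitted. In a fit to the groups compared it was 1 for sip53 against siControl at 0 h (3 with all groups), 1 at 2 h (0), and 0 after 8 h of E2 in sip53 (2) and in siControl (1), each set against 0 h. DESeq2 called 1 for sip53 against siControl at 2 h, 5 at 8 h against 0 h in sip53 (2 with edgeR, to which FOS, JUNB and IER3 were added), 2 at 8 h against 2 h in siControl (1 with edgeR), and 5 at 8 h against 0 h averaged over both arms (3). Without the filter on low counts the 8 h against 2 h count in siControl was 2, and upper-quartile scaling gave 1 at 2 h against 0 h in sip53. With a library left out the counts ran from 1 to 3 for sip53 against siControl at 0 h, 0 to 1 at 2 h, 0 to 1 at 2 h against 0 h, 0 to 2 at 8 h against 0 h and 1 to 2 at 8 h against 2 h in sip53, 0 to 1 for each 8 h comparison in siControl, and 3 to 5 at 8 h against 0 h averaged over both arms. The count of 5 came without siControl 0 h replicate 2, where FOS (log2 0.94, edgeR adjusted p = 0.0231) and JUNB (-0.24, adjusted p = 0.0199) were also called. For sip53 against siControl at 8 h, FOSL1 ran from -0.19 to 0.03, positive without siControl 8 h replicate 1, and IER3 from -0.04 to 0.24, negative without sip53 8 h replicate 1, neither called. The cause of these shifts was not tested. Same-numbered samples showed little shared deviation (correlations from -0.15 to 0.21, over 0.1 in 3 of 45), and numbers were not used to pair samples. Such correlations cannot show that same-numbered samples were handled apart. A replicate block gave 2 calls for siControl at 8 h against 2 h, 1 for sip53 against siControl at 2 h, and changed no other count by more than 1.5 times. Other scalings moved the median of all genes by at most 0.04. Of 93 calls on list genes, 40 held in every fit without a library and 6 in none. Counts of 13 to 78 per library limit FOS and FOSB.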
